A study of Oryza sativa with 12 samples.

Results

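Transcript levels at the end of the night were compared with those at the end of the day in rice seedlings that stayed at 28 °C throughout. The comparison used 6 of the 12 libraries of the series, 3 harvested at Zeitgeber time (ZT) 24 and 3 harvested at ZT12, where ZT counts hours from lights-on. They are called NT24 and NT12, or dawn and dusk for short. Of 40424 gene identifiers in the count table, 24700 passed a filter on low counts and were tested. The plants were indica rice of the cultivar 93-11, grown with lights on for 12 h a day and harvested on day 11 at the 3-leaf stage. RNA came from all parts above ground, with 5 plants pooled into each of the 3 biological repeats of a group. NT12 plants stood at 28 °C from ZT8 to ZT12 and NT24 plants at 28 °C from ZT20 to ZT24, as controls for seedlings moved to 13 °C over the same 4 h. Those chilled groups, CT12 and CT24 with 3 libraries each, came from the same cultivar and light cycle and serve below as a separate measurement of the same times of day. The letters WT stand in every library's title and are not explained in the labels. The only agent that differed among the groups, apart from the time of day, was temperature.

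In plants the circadian clock is a set of transcription factors that repress and activate each other in turn, so that some are transcribed towards the morning and others towards the evening. Light, sugar supply and temperature act on the same genes, and a light-dark cycle imposes its own daily changes, such as building starch in the day and using it at night. Harvests at 2 times in a light-dark cycle measure the sum of these influences and cannot tell them apart. In bulk tissue, a lower level can also mean fewer cells of a type or less RNA per cell, and these cannot be told apart either.

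None of the identifiers could be matched to a gene name, because 0 of the 40424 occur in the available rice gene table and the count table itself pairs none of them. Genes are therefore described by their levels, their direction and their size of change, and only 4 identifiers are printed. For the same reason the labelled tissue could not be checked against marker genes of shoots, roots or dividing cells. Lists of clock, photosynthesis, chlorophyll, starch and light-signalling genes had no matched members.

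Total counts lay between 47757049 and 49507292 in NT12 and between 44258103 and 48911223 in NT24. Levels are given as CPM (counts scaled to library size) under TMM, the trimmed-mean scaling of edgeR, which assumes that most genes do not change. Its factors were 1.33 ± 0.0206 in NT12 and 0.986 ± 0.0451 in NT24 (SD, n = 3). The main counts of genes in each direction are therefore given under other scalings as well. Counts by direction that are given under TMM alone can also move with the scaling. Across genes, Pearson's r of log2 CPM was 0.960 to 0.978 between NT12 libraries and 0.952 to 0.973 between NT24 libraries, against 0.846 to 0.875 between the groups. The first principal component of the 6 libraries held 70.5% of the variance and separated the groups, from -116 to -106 in NT12 and from 107 to 118 in NT24. The second held 14.7% and set NT12 replicate 1 (64.5) apart from NT12 replicates 2 and 3 (-29.1 and -30.1). It also spread the NT24 libraries, at -77.5, 13.6 and 58.7 in replicates 1, 2 and 3. By a chi-square per gene between libraries, NT24 replicate 1 stood at 75.6 and 89.5 from replicates 2 and 3, which had 25.5 between themselves. NT12 replicate 1 stood at 65.1 and 59.6 from replicates 2 and 3, which had 36.1.

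Dawn and dusk differed for a large part of the expressed genes. Of the 24700 genes tested, 10897 (44.1%) were called different by edgeR's quasi-likelihood test at an adjusted p (Benjamini-Hochberg) below 0.05. The dawn side had 5736 genes (23.2%), called dawn-high here, and the dusk side 5161 (20.9%), called dusk-high. With total counts in place of TMM this split became 3100 and 8694, and the median log2 difference over all genes went from 0.04 to -0.39. Upper-quartile scaling, with a median of -0.08, gave 4843 and 6012. Each of 4 scalings (TMM, RLE, upper-quartile and total counts) called the same 3100 genes dawn-high and the same 5161 dusk-high. No gene called under TMM was called with the opposite sign under total counts. Both counts thus ranged with the scaling, from 3100 to 5736 dawn-high and from 5161 to 8694 dusk-high. TMM had the highest median of the 4 scalings, so the others moved genes towards dusk, and its dusk-high calls could hardly be lost. Over the main fit and 10 alternatives without left-out libraries, 2914 dawn-high and 4253 dusk-high calls were shared. Which direction had the majority also turned with the libraries used. It was 4809 dawn-high against 4990 dusk-high without NT12 replicate 1, 4421 against 4979 without replicate 2 and 4318 against 4890 without replicate 3. It was 4958 against 5458 without CT24 replicate 2, which enters through the shared scaling and dispersion, and 5698 against 6007 in a fit of the 6 libraries alone.

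**Figure D1:**
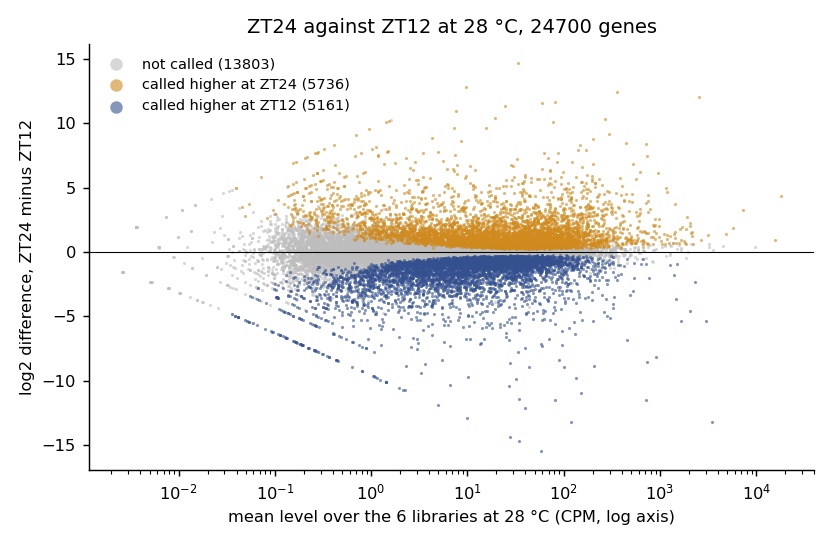
Log2 difference between ZT24 and ZT12 at 28 °C (y axis) against the mean level over the 6 libraries in CPM (x axis, log scale), with 1 point per gene. Orange points are the 5736 genes called higher at ZT24, blue points the 5161 called higher at ZT12 and grey points the 13803 not called; at high levels orange points outnumber blue ones, and the diagonal lines of points at low levels are genes with no or very few counts in a group.

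Most of the differences were modest, and a minority was very large. Dawn-high genes had a median log2 difference of 1.09, with the middle 50% of them between 0.68 and 1.89. For dusk-high genes the median size was 1.25, with the middle 50% between 0.79 and 2.20. Differences of at least 2-fold were found for 3112 dawn-high and 3205 dusk-high genes, which were 54.3% and 62.1% of the respective lists. Total-count scaling turned these to 1927 and 5281. At 4-fold or more there were 1335 and 1497 genes, and at 8-fold or more 652 and 714. At the far end, 65 genes were at least 100-fold higher at dawn and 107 at least 100-fold higher at dusk in the fitted values. At least 1000-fold, the numbers were 13 and 20. Fitted values of this size depend on the prior count wherever a group has no counts.

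The 3 dawn libraries and the 3 dusk libraries rarely overlapped for called genes. All 3 NT24 libraries lay above all 3 NT12 libraries for 5674 of the 5736 dawn-high genes, and the reverse held for 5086 of the 5161 dusk-high genes. Among all genes tested, 7632 had the first arrangement and 6858 the second, together 58.7% of genes, against the 44.1% that were called. Lack of overlap was thus met by more genes than the test called.

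For the 13803 genes that were not called, the data settle the question only in part. In 6178 of them (44.8%) the 95% interval of the log2 difference lay within 2-fold in either direction. These genes had a median level of 17.6 CPM. In the other 7625 the interval reached beyond 2-fold, and their median level was 1.04 CPM. For those genes a difference of 2-fold lay within the interval, so an equal level at both times was not shown. Conversely, 2279 called genes had an interval that lay wholly within 2-fold.

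The 2 abundant transcripts with the largest rise towards dawn went from low levels at dusk to high levels at dawn. They were chosen among called genes that averaged at least 100 CPM over the 6 libraries and whose groups did not overlap, of which there were 788 on the dawn side and 242 on the dusk side. OsR498G0204548800.01 had 0.142, 0.0911 and 0.139 CPM in NT12 replicates 1, 2 and 3, and 766, 667 and 728 CPM in NT24 replicates 1, 2 and 3. All dawn libraries were high and all dusk libraries very low, with 24 counts over the NT12 libraries and 99004 over the NT24 libraries. The log2 difference was 12.48 (SE 0.24, edgeR adjusted p = 6.24e-11). It was the transcript of rank 23899 by level at dusk and of rank 133 at dawn.

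OsR498G0815231500.01 reached the higher dawn level. Its NT12 libraries held 1.11, 0.896 and 1.50 CPM, and its NT24 libraries 5494, 4625 and 5056 CPM. The groups lay more than 3 orders of magnitude apart, and the spread within each was small beside that gap. The log2 difference was 12.08 (SE 0.26, edgeR adjusted p = 1.27e-10). By level it ranked 19422 at dusk and 8 at dawn, with 226 counts over the NT12 libraries and 695416 over the NT24 libraries.

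On the dusk side the largest falls towards dawn were as steep. OsR498G0612408600.01 stood at 223, 246 and 245 CPM across NT12, with a single count in each NT24 library. Its ratio of dusk to dawn, from 46203 counts against 3, was 10916, with a 95% interval (exact, for counting error alone) of 3735 to 52933 (edgeR adjusted p = 3.88e-11). The dusk libraries were all high and alike, and the dawn libraries were at the limit of detection.

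OsR498G0714482300.01 was the more abundant of the dusk pair. Its NT12 libraries held 6429, 6797 and 7753 CPM, where it ranked 3 by level, and its NT24 libraries 0.453, 0.218 and 1.53 CPM. The dusk libraries agreed closely, and the dawn libraries differed among themselves, with 21, 10 and 69 counts. The log2 difference was -13.22 (SE 0.74, edgeR adjusted p = 8.03e-08). It became -14.33 without NT24 replicate 3 and -12.79 without NT24 replicate 2, so its size is known less well than its direction.

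**Figure D2:**
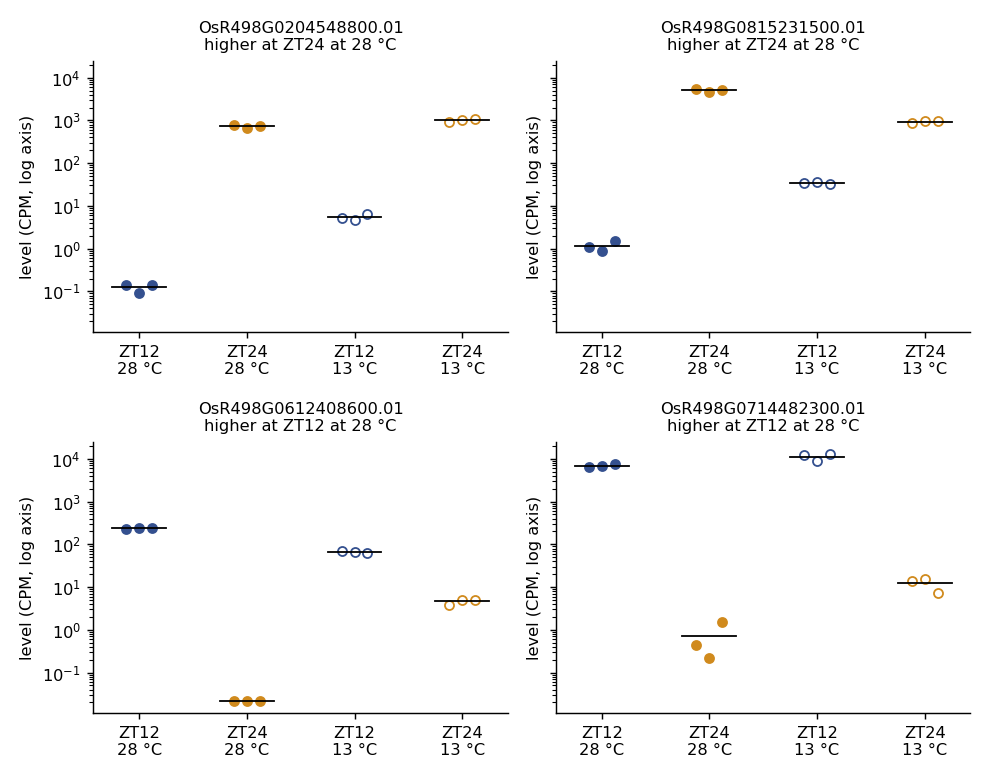
Level in CPM (y axis, log scale) of the 4 named transcripts in each of the 12 libraries, by time and temperature. Filled circles are libraries at 28 °C, open circles libraries at 13 °C, colours mark the time, and black bars are group means (n = 3). OsR498G0815231500.01 went from between 0.896 and 1.50 CPM at ZT12 to between 4625 and 5494 CPM at ZT24 at 28 °C. At 13 °C the fold difference between the times was smaller for all 4 transcripts.

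A further set of genes had counts at only 1 of the times. No count in any NT12 library was found for 46 tested genes, and no count in any NT24 library for 115. Most of these were rare at the other time as well. With at least 20 counts required in each library of the other group, 7 genes remained on the dawn side and 29 on the dusk side. The 7 dawn genes averaged between 0.567 and 67.1 CPM at ZT24, with a median of 2.87 CPM, and were at least 36.7-fold to at least 4337-fold higher there. The 29 dusk genes averaged between 0.387 and 116 CPM at ZT12, with a median of 2.12 CPM, and were at least 17.7-fold to at least 5336-fold higher there. These bounds set the empty group to 3 counts over its libraries, or 0.0155 CPM in NT12 and 0.0218 CPM in NT24. Genes with no count at one time were thus mostly weakly expressed at the other.

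The filter itself favoured part of these genes. All 3 NT12 libraries had at least 10 counts, and not all 3 NT24 libraries, for 1540 tested genes, of which 581 were called dusk-high and 0 dawn-high. The reverse held for 671 genes, of which 313 were called dawn-high and 0 dusk-high. A gene that passes the filter through the group where it is high can hardly be called the other way, so these counts are a description only. Among the 21056 genes with at least 10 counts in all 6 libraries, 5371 were called dawn-high and 4520 dusk-high, or 47.0% in all. The bulk of the calls therefore came from genes that were detected at both times.

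Abundant transcripts were more often higher at dawn than at dusk. Genes averaging over 100 CPM at 28 °C numbered 1579, of which 792 (50.2%) were dawn-high and 244 (15.5%) dusk-high. Total-count scaling gave 558 and 445, and voom with cyclic loess gave 573 and 436. Of the 10360 genes between 10 and 100 CPM, 3350 (32.3%) were dawn-high and 2381 (23.0%) dusk-high, a split that turned to 1639 and 4405 under total counts and to 2772 and 2865 under upper-quartile scaling. Below 10 CPM dusk-high genes were the more frequent. Between 1 and 10 CPM, 1251 of 8147 genes (15.4%) were dawn-high and 2023 (24.8%) dusk-high, or 1633 and 1702 after cyclic loess. Under 1 CPM, 343 of 4614 genes (7.43%) were dawn-high and 513 (11.1%) dusk-high, or 227 and 737 under total counts. The median level of dawn-high genes was accordingly 25.6 CPM over the 6 libraries, against 10.4 CPM for dusk-high genes and 4.84 CPM for genes not called.

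The median log2 difference rose from -0.11 for genes of 1 to 10 CPM to 0.11 for genes of 10 to 100 CPM and 0.47 for genes over 100 CPM under TMM. Total-count scaling shifted these to -0.54, -0.32 and 0.04, so the sign for genes of 10 to 100 CPM depends on the scaling, as it does under upper-quartile scaling (-0.012). The step from 1 to 10 CPM up to over 100 CPM was about the same under each constant scaling, as it must be by construction. Cyclic loess, which removes trends with level by construction, gave 0.022, 0.024 and 0.054 for the same classes. Under 1 CPM the median was -0.05 and the median SE of a gene's log2 difference was 0.82, against 0.16 for genes of 10 to 100 CPM. For rare transcripts only large differences could be called, and the called ones under 1 CPM had a median size of 2.99 on the log2 scale.

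The shift can also be stated as shares of a library's counts, which is the view that total-count scaling takes. Genes called dawn-high held 29.7%, 28.9% and 29.1% of the counts in NT12 replicates 1, 2 and 3, and 61.6%, 58.9% and 59.2% in NT24 replicates 1, 2 and 3. Genes called dusk-high held 29.4%, 28.8% and 29.3% in NT12 and 7.53%, 8.25% and 8.02% in NT24. The direction of these shares follows from how the genes were chosen, and their size is a description. With these lists the pools of dawn-high and dusk-high transcripts were of about equal size at dusk, and at dawn the dawn-high pool held most of the counts. With the genes called under total-count scaling, the dawn-high share went from 16.2% in NT12 to 44.9% in NT24 and the dusk-high share from 45.8% to 18.5%.

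Between a dusk and a dawn library, 30.9% to 34.7% of the counts sat on different genes (9 pairs, the summed absolute difference in share divided by 2). Between libraries of the same group this was 6.82% to 8.64% in NT12 and 5.32% to 9.75% in NT24. All 9 pairs that crossed the groups were above all 6 pairs within them. For the group means the displaced part was 31.4% of the counts. The gain towards dawn was concentrated in few genes: 117 genes carried 50% of it, and the 10 largest gains carried 23.1%. The largest single gain, 3.20% of all counts, made up 10.2% of the total. The loss was spread more widely, with 543 genes for 50% and 13.6% in the 10 largest losses. A moderate number of strongly expressed genes thus took up at dawn what a much larger number had held at dusk.

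**Figure D3:**
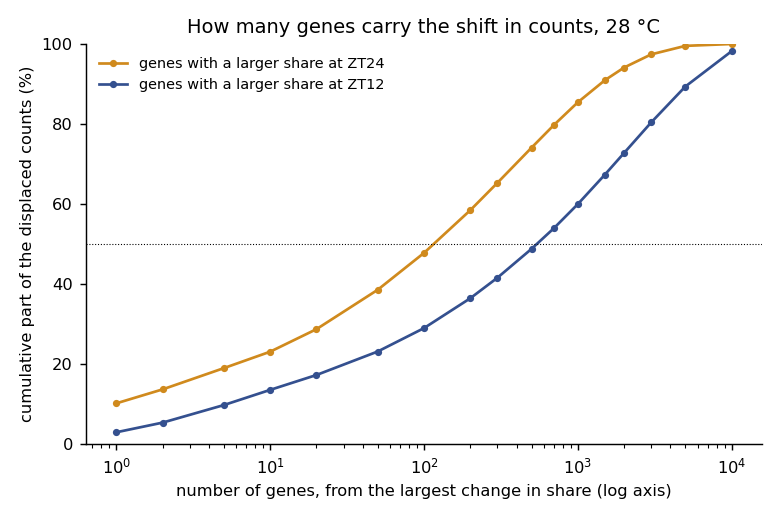
Cumulative part of the displaced counts (y axis, percent) against the number of genes, ordered from the largest change in share (x axis, log scale), for the group means at 28 °C. The orange curve, for genes with a larger share at ZT24, crosses 50% at 117 genes, and the blue curve, for genes with a larger share at ZT12, crosses it at 543 genes.

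Of the 100 largest gains in share, 99 were also called dawn-high under TMM, and in 98 the shares of the groups did not overlap. Of the 100 largest losses, 79 were called dusk-high and in 95 the shares did not overlap. By construction, a gene that keeps its TMM-scaled level has a smaller share of the counts at dawn than at dusk. The 100 largest gains had a median size of 2.88 on the log2 scale and the 100 largest losses 1.94. Their mean levels over the 6 libraries started at 252 CPM for gains and 119 CPM for losses.

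The most abundant transcripts changed their composition between the times. Of the 100 with the highest mean level at dusk and the 100 with the highest at dawn, 58 were shared, leaving 42 in each list that were not in the other. The 42 in the dawn list alone had a median rank of 565 by level at dusk, and the lowest of them ranked 19422. The 42 in the dusk list alone had a median rank of 226.5 at dawn, with the lowest at 21488. In the dawn list 78 genes were dawn-high, 1 was dusk-high and 21 were not called, and 34 were at least 4-fold higher at dawn. Under total counts 66 were dawn-high and 6 dusk-high, and after cyclic loess 58 and 13. In the dusk list 26 were dusk-high, 37 dawn-high and 37 not called, and 18 were at least 4-fold higher at dusk. Total counts turned this to 37 dusk-high and 25 dawn-high, and cyclic loess to 49 and 17. The lists were ranked on the same libraries as the test, so these counts are descriptive.

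The libraries differed accordingly in how evenly counts were spread. The genes that held 50% of a library's counts numbered 1305, 1263 and 1187 in NT12 and 660, 840 and 778 in NT24. The most abundant transcript alone held 1.26% to 1.59% of the counts in NT12 and 3.07% to 3.99% in NT24. It was the same gene in all 3 libraries of a group and a different gene in the 2 groups. The 10 most abundant held 7.05% ± 0.431 in NT12 and 11.2% ± 1.33 in NT24 (SD, n = 3). In each of these measures the groups did not overlap, and the exact two-sided permutation test gave p = 0.1, the smallest that 3 against 3 allows (0.117 adjusted over 7 measures). The number of genes with at least 1 CPM was 19717 ± 156 in NT12 and 19453 ± 240 in NT24 (exact permutation p = 0.3, two-sided), and there the groups overlapped. Median within-group SD of a gene's log2 CPM was 0.21 in NT12 and 0.22 in NT24.

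Identifiers of both kinds in the table took part. Those that begin with OsR498G, of which 23350 were tested, had 23.5% dawn-high and 21.3% dusk-high. The remainder are numbered in a series of their own, whose meaning the labels do not give. Of 1350 of these that were tested, 256 (19.0%) were dawn-high and 178 (13.2%) dusk-high. Their median level was 1.51 CPM, against 9.99 CPM for the OsR498G identifiers, and the part of level in their lower share of calls was not tested. Of the 29 dusk genes with no count at dawn described above, 7 belonged to the numbered series, and of the 7 dawn genes 1 did.

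The chilled libraries measured the same times of day in 6 other samples. CT12 replicate 2 stood apart from its group, with a chi-square per gene of 138 and 139 against replicates 1 and 3, which had 32.3 between themselves. There the 3 CT24 libraries were compared with the 3 CT12 libraries, and 10397 genes (42.1%) were called, with 5018 (20.3%) higher at dawn and 5379 (21.8%) higher at dusk. Of the 5736 genes that were dawn-high at 28 °C, 3043 (53.1%) were called dawn-high at 13 °C as well, against the 20.3% of all genes. Another 442 (7.71%) were called dusk-high and 2251 were not called. Of the 5161 dusk-high genes, 3122 (60.5%) were again called dusk-high, against 21.8% of all genes, 181 (3.51%) were called dawn-high and 1858 were not called. Of the 6788 genes called at both temperatures, 6165 (90.8%) had the same direction. These made up 56.6% of the list at 28 °C and 59.3% of the list at 13 °C. Without CT12 replicate 2 the genes called alike at both temperatures numbered 3338 dawn-high and 3311 dusk-high, and over all left-out libraries they ranged from 2295 to 3338 and from 2783 to 3311. Under total-count scaling 2317 of 3100 dawn-high and 2751 of 8694 dusk-high genes were called alike at 13 °C, and 160 and 1286 in the opposite direction.

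Genes with larger differences at 28 °C were called alike at 13 °C more often, except that the 2 largest classes of dusk-high genes were about equal. Among dawn-high genes under 2-fold, 44.9% were called dawn-high at 13 °C. This share was 57.8% for those of 2- to 4-fold and 59.4% for 4- to 8-fold. It was 64.6% for 8- to 32-fold and 70.3% for 32-fold and over. Among dusk-high genes the shares in the same order were 54.1%, 60.4%, 67.3%, 71.1% and 69.8%. Opposite calls became rarer, from 8.57% to 5.14% for dawn-high genes and from 5.98% to 0.930% for dusk-high genes between the smallest and the largest class. The median log2 difference of dawn-high genes of 32-fold and over was 5.97 at 28 °C and 2.80 at 13 °C, and that of dusk-high genes was -6.64 and -3.99. Since these genes were chosen for large values at 28 °C, a smaller median in other libraries is partly built in.

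Across all genes, with no such choice, the interquartile range of estimated differences was nearly the same at the 2 temperatures, and large differences were fewer at 13 °C. The interquartile range of the log2 difference was 1.28 at 28 °C and 1.24 at 13 °C. Under total-count scaling it was 1.28 and 1.23. That scaling shifts all differences by about the same amount, so the range hardly changes by construction. At least 8-fold differences were called for 1366 genes at 28 °C and 1086 at 13 °C. The 95th percentile of the size of the log2 difference was 3.23 and 2.99. Estimated differences include the spread between replicates, which was largest in CT12 (median within-group SD 0.34, against 0.21 in NT12). Pearson's r between the log2 differences at the 2 temperatures was 0.560 and Spearman's rho 0.524 over 24700 genes. The 2 comparisons share no library but share the scaling and the dispersion estimate, and genes are not independent replicates, so no p is given.

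**Figure D4:**
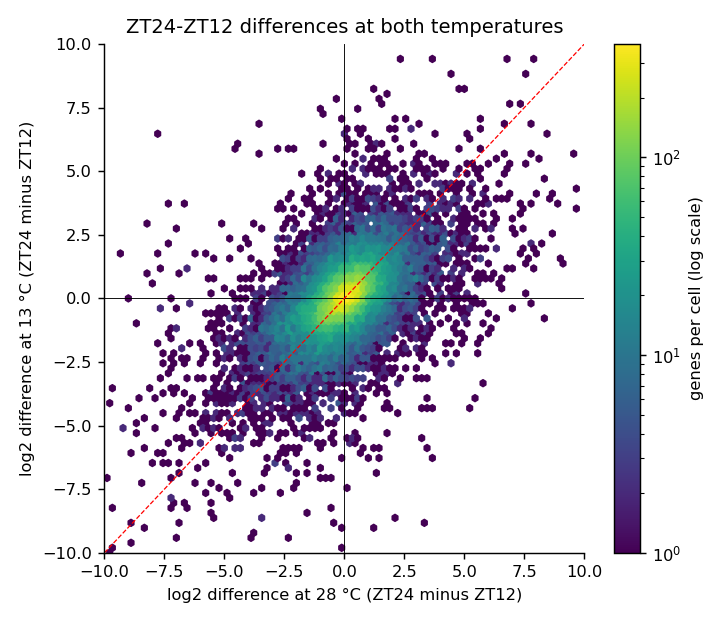
Log2 difference between ZT24 and ZT12 at 28 °C (x axis) against that at 13 °C (y axis), with genes binned into cells coloured by their number on a log scale and equality drawn as a dashed line. Of 24700 genes, 24660 lie within the axis limits of 10 and 40 outside, and most of the cloud follows the diagonal loosely (Pearson's r = 0.560). Genes far out along the x axis tend to lie closer to 0 on the y axis. Choosing genes by their size on either axis favours smaller values on the other.

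A test of the difference itself found 5486 genes (22.2%) whose dawn-dusk difference was not the same at 13 °C as at 28 °C (interaction term, edgeR's quasi-likelihood test). The difference was more positive at 13 °C for 2283 (9.24%) and more negative for 3203 (13%). Total-count scaling called 10591 genes and turned this balance to 9279 and 1312, and upper-quartile scaling turned it to 3283 and 2446. Without CT12 replicate 2 the test called 7124 genes, and without NT12 replicate 3, the lowest count, 4260. Of the dawn-high genes at 28 °C, 2027 had a smaller difference at 13 °C by this test and 198 a larger one. For the dusk-high genes these numbers were 1414 and 379. Smaller means here and below that the difference moved towards the other direction, so genes whose direction turned are included. All 623 genes called in opposite directions at the 2 temperatures had a called interaction, 442 of them dawn-high and 181 dusk-high at 28 °C. This is nearly given by construction, because the interaction is the gap between the 2 differences of the same fit. Starting instead from genes called at 13 °C, 1001 dawn-high genes had a smaller difference at 28 °C and 629 a larger one, and for dusk-high genes these numbers were 1568 and 518. Either list is chosen on libraries that enter the interaction, which favours a smaller difference at the other temperature. Under total-count scaling the dawn-high genes at 28 °C had 816 smaller and 538 larger differences, and the dusk-high genes 5640 and 205. Starting from 13 °C under total counts, dawn-high genes had 4524 smaller and 358 larger differences at 28 °C, and dusk-high genes 623 and 1062. Of the 6165 genes with the same direction at both temperatures, 4441 had no called interaction.

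The 4 named transcripts kept their direction at 13 °C, each with a smaller fold difference between the times. OsR498G0204548800.01 had 5.30, 4.71 and 6.51 CPM in CT12 and 935, 1026 and 1086 CPM in CT24. The log2 difference at 13 °C was 7.53 (SE 0.19, adjusted p = 1.02e-09 by edgeR). Its dusk libraries all stood above the NT12 libraries, and its dawn libraries above the NT24 libraries. OsR498G0815231500.01 had 33.9, 35.7 and 32.2 CPM in CT12 and 870, 970 and 968 CPM in CT24. Between the times it differed by 4.79 on the log2 scale (SE 0.19, adjusted p = 1.82e-08 by edgeR). Here the dusk level was higher and the dawn level lower than at 28 °C, with no overlap between temperatures at either time.

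OsR498G0612408600.01 had 71.8, 65.1 and 61.6 CPM in CT12 and 3.87, 5.09 and 4.95 CPM in CT24. The log2 difference at 13 °C was -3.83 (SE 0.13, adjusted p = 4.41e-09 by edgeR). The transcript that had a single count per dawn library at 28 °C was thus present in each dawn library at 13 °C, and its dusk level was lower. OsR498G0714482300.01 had 12182, 9118 and 12688 CPM in CT12 and 13.7, 15.8 and 7.47 CPM in CT24. Here the log2 difference was -9.85 (SE 0.65, adjusted p = 4.54e-07 by edgeR). Its TMM-scaled levels at 13 °C lay above those at 28 °C at dawn and also at dusk, with no overlap at either time. The dusk part rests on the scaling, whose factors averaged 1.33 in NT12 and 0.787 in CT12. Raw counts at dusk were 406271, 447667 and 502708 in NT12, and 383772, 342645 and 422925 in CT12. With counts divided by library totals alone, the dusk groups overlapped.

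In shares of counts, the sets defined at 28 °C kept their order in the chilled libraries. Those libraries entered the filter, the scaling and the dispersion estimate of the model, but not the group means that were compared at 28 °C. Dawn-high genes held 37.0%, 35.8% and 36.2% of the counts in CT12 and 50.4%, 52.6% and 52.4% in CT24. Dusk-high genes held 28.7%, 29.8% and 28.5% in CT12 and 13.7%, 13.5% and 13.8% in CT24. All CT24 libraries thus lay above all CT12 libraries for the dawn-high set and below them for the dusk-high set. The gap between the group means was smaller than at 28 °C for each set, although the gap at 28 °C is enlarged by the choice of genes. The median within-group SD of log2 CPM was 0.34 in CT12, the largest of the 4 groups, and 0.23 in CT24.

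**Figure D5:**
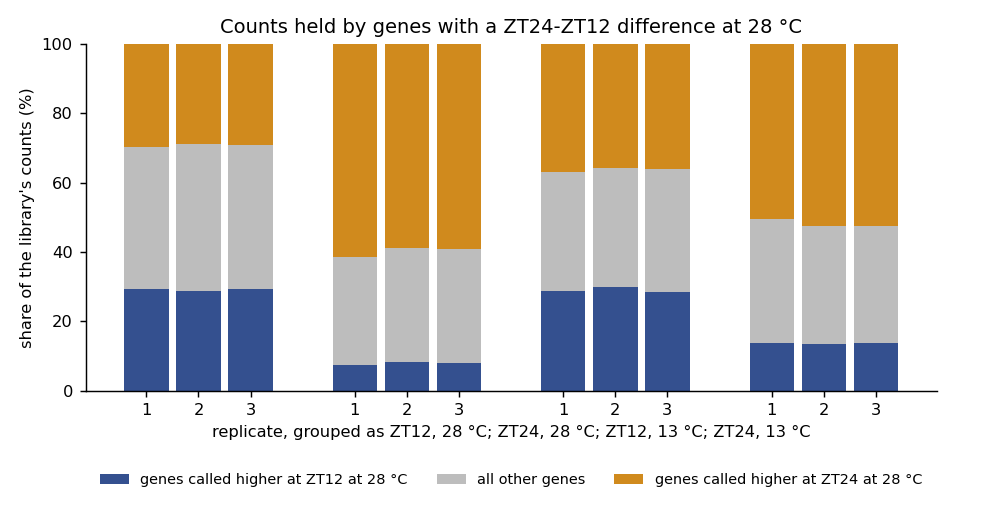
Share of each library's counts (y axis, percent) held by genes called higher at ZT12 at 28 °C (blue), by genes called higher at ZT24 at 28 °C (orange) and by all other genes (grey), with 1 bar per library (x axis, 3 replicates per group). The orange part is 28.9% to 29.7% in NT12, 58.9% to 61.6% in NT24, 35.8% to 37.0% in CT12 and 50.4% to 52.6% in CT24.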

How the data were processed

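Libraries of rice shoot RNA were analysed from raw counts per gene identifier, deposited by the authors with 1 column per library and no normalization. The submitters' processing notes name HISAT2 2.0.4. The genome build, annotation, counting tool and strand setting were not given in the sources used here. Genes that overlap or are nearly identical may therefore share reads. After edgeR's filterByExpr (minimum count 10, minimum total 15), 24700 genes with 99.98% of the counts remained. A quasi-likelihood model (edgeR 4.0.16, R 4.3.3) took 1 mean for each of the 4 groups over 12 libraries, with TMM scaling and no block, leaving 8 residual degrees of freedom. All adjusted p-values of log2 differences are from this model, over all genes tested, and so are the 95% intervals of log2 differences, which include the spread between replicates. SEs were derived from the F statistic and are unreliable where a group has few counts. The interval of the count ratio and the floor of 3 counts cover counting error only, as reads copied by PCR are not separate molecules. Replicates were biological repeats per the labels' protocols, and libraries of a group differed far beyond sampling noise (chi-square per gene between 25.5 and 89.5 at 28 °C). The model was tested on simulated data. Named genes were the 2 called genes with the largest log2 difference in each direction that averaged at least 100 CPM at 28 °C and whose groups did not overlap. The comparison, lists and rules were chosen with earlier results of these data known. Alternatives were other scalings (RLE, upper-quartile, total counts), other filters, DESeq2 1.42.0, limma-voom (limma 3.58.1), also after cyclic loess, the 6 libraries alone, a replicate block, and each library left out.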

Additional observations from a re-analysis of the deposited data

Results flagged for a closer look

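The difference between ZT24 and ZT12 was not the same at 13 °C as at 28 °C for 5486 genes by the interaction test (10591 under total-count scaling, and 7124 without CT12 replicate 2, which stood apart from its group), and for each of the 4 named transcripts. The change in the log2 difference from 28 °C to 13 °C was -4.95 for OsR498G0204548800.01 (SE 0.25, edgeR adjusted p = 2.56e-07) and -7.29 for OsR498G0815231500.01 (SE 0.26, edgeR adjusted p = 3.80e-08). It was 9.42 for OsR498G0612408600.01 (SE 0.25, edgeR adjusted p = 3.00e-09), which rests on 3 counts over the NT24 libraries. It was 3.37 for OsR498G0714482300.01 (SE 0.68, edgeR adjusted p = 0.00451). All 4 were chosen for large differences at 28 °C, which favours smaller ones at 13 °C.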

How the results depend on the processing

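Of 317 values recomputed under the alternatives, 279 stayed within 1.5 times for a count, on the same side of the threshold for a named transcript, or within the spread between libraries for a level. A reversal of sign was looked for only in the 4 named transcripts, which stayed called with the same sign under every alternative run. They were chosen for the largest called differences in the same libraries, so a reversal or a lost call was hardly possible. Their values are nevertheless part of the 279. A turned majority of calls or a changed sign of a class median was not labelled as a reversal. Total counts gave 3100 genes higher at ZT24 and 8694 higher at ZT12 (1927 and 5281 at least 2-fold), and 10591 genes with an interaction. They gave class medians of -0.48, -0.54, -0.32 and 0.039 from under 1 CPM to over 100 CPM, and shares of 16.2% (NT12) and 44.9% (NT24) for dawn-high and 45.8% and 18.5% for dusk-high genes. Above 1 CPM, upper-quartile scaling gave class medians of -0.23, -0.012 and 0.35, and the 6 libraries alone -0.18, 0.038 and 0.40. These 6 alone gave 5698 and 6007 calls. A call was shared by all 23 fits for 2862 dawn-high and 3799 dusk-high genes.

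With 1 library left out, calls ranged from 9208 (without NT12 replicate 3) to 11936 (without CT12 replicate 2), with 4318 to 6345 higher at ZT24 and 4466 to 5591 higher at ZT12. The majority turned to ZT12 on leaving out any single NT12 replicate or CT24 replicate 2. The interaction count ranged from 4260 to 7124. The dawn-high share ranged from 22.8% to 27.1% in NT12 and from 52.6% to 57.9% in NT24, and the dusk-high share from 26.7% to 29.5% and from 6.54% to 8.03%, with fewer genes called by construction. No pairing by replicate number was seen between NT12 and NT24. Deviations from the group means correlated at -0.444, -0.021 and -0.302 between libraries of the same number. The value was 0.434 between NT12 replicate 1 and NT24 replicate 3. Between NT12 and CT12 libraries of the same number it was 0.285, 0.088 and -0.097. Deviations within a group of 3 are not independent of each other, so these correlations cannot exclude a pairing. With the replicate number as a block, 10066 genes were called, 5305 and 4761 by direction, and no named transcript lost its call.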
